A study of Mus musculus with 6 samples.

Results

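Runs of high DNA methylation whose mean level differed little without Dnmt3a were collected from lung endothelial cells of mice. A run was 3 or more directly adjacent tiles of 1 kb, each with a mean methylation level of 80% or more in the wild-type (WT) samples and a difference between the knockout (KO) and WT group means of under 3 percentage points. There were 12581 such kept runs. They held 49110 of the 1954255 tiles measured on chromosomes 1 to 19 (2.51%), or 10.3% of the 478030 tiles at 80% or more in WT. The runs were chosen by the methylation levels of these 6 samples, so their levels and KO minus WT differences are given below as a description and were not tested. For comparison, the same WT limit with a KO level lower by 3 points or more in each tile gave 38820 runs with 154883 tiles, called lost runs here.

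DNA came from flow-sorted endothelial cells of lung, in 3 samples of genotype KO for Dnmt3a and 3 of genotype WT. The assay was whole-genome bisulfite sequencing with tagmented libraries, in which bisulfite turns unmethylated but not methylated cytosines into a base read as T. For the KO mice, the sources used here do not name the allele, any Cre driver, the cells that lack Dnmt3a, the age or the sex. Nothing in the labels ties a sample to its own mouse, so the spread between them, and every p-value below, may be technical. Methylation does not show whether the Dnmt3a gene was deleted. At gene starts, WT levels ran from 5.68% to 25.5% over 8 pan-endothelial markers and from 39.7% to 73.5% over 5 leukocyte markers. The ranges of 4 epithelial and 3 mesenchymal markers were wide, 1.66% to 59.98% and 1.67% to 59.997%, and expression was not measured.

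As background, Dnmt3a and its relative Dnmt3b are the enzymes that place methyl groups on cytosines of CG pairs that carried none, while Dnmt1 copies existing methylation onto the new strand when DNA is replicated. In transcribed genes, the body carries the histone mark H3K36me3 behind the start, written by Setd2, and Dnmt3b is known to bind that mark and to methylate active gene bodies. Starts of broadly expressed genes, rich in CG pairs, are usually free of methylation.

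Gene starts show what the kept runs surround and what they sometimes contain. Windows of 300 bases around gene starts were taken from RefSeq on GRCm38.p6, the assembly that mm10 names, and are written 5′ to 3′ on the strand of the gene in lower case. CG pairs, which read the same on both strands, are in capitals. At least 1 CG pair was present in 96.5% of all 29687 RefSeq promoter windows of this length. Nup155, a scaffold protein of the nuclear pore and host of the longest kept run, starts at chr15:8109063-8109362 (plus strand) with 23 CG pairs. Dync1h1, the heavy chain of cytoplasmic dynein, starts at chr12:110601145-110601444 (plus strand) with 30.
Nup155: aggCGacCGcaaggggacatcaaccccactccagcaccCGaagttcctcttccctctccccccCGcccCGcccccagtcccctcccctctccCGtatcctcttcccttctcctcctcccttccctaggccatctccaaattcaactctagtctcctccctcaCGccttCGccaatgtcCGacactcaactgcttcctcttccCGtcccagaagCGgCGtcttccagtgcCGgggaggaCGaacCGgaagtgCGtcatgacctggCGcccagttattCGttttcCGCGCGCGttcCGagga
Dync1h1: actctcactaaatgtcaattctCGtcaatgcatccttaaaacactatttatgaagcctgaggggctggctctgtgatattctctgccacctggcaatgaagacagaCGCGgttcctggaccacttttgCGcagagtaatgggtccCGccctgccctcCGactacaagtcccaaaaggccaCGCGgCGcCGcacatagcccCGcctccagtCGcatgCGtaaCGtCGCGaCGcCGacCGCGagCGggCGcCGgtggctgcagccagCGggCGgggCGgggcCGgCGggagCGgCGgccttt

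The tile at the Nup155 start was at 1.78%, 0.773% and 0.905% in KO samples 1 to 3 and at 0.642%, 1.38% and 1.44% in WT samples 1 to 3. All 6 values were near 0 and the groups overlapped. The long run of Nup155 began 12 kb from the nearest tile under 10% in WT, and that of Dync1h1 9 kb from it.

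A few kept runs contained a gene start. Of the RefSeq windows, 122 had their start in a kept run, from 111 genes, and 43 of these windows were of protein-coding genes. Their median was 3 CG pairs, beside 8 over all windows and 23 over the 12078 windows whose tile was under 10% in WT. The tiles of the 122 starts had a median level of 86.5% in WT and 85.7% in KO. Starts in lost runs numbered 771, also with a median of 3 CG pairs, and their tiles had medians of 85.02% in WT and 75.7% in KO. These medians are of start windows alone, and CG content of the runs themselves was not analysed here. Genes with 2 starts show the contrast inside 1 gene. Ncapd3, a subunit of the condensin II complex that compacts chromosomes, has a start with 4 CG pairs inside a kept run of 6 tiles at chr9:27060166-27060465 (plus strand), and another start with 33 CG pairs at chr9:27029915-27030214 (plus strand). Prpsap2, a protein that associates with the enzyme making phosphoribosyl pyrophosphate, has a start with 2 CG pairs inside a kept run of 7 tiles at chr11:61756296-61756595 (minus strand), and another with 17 CG pairs at chr11:61762039-61762338 (minus strand). These genes were picked after their values were seen.
Ncapd3 inside the run: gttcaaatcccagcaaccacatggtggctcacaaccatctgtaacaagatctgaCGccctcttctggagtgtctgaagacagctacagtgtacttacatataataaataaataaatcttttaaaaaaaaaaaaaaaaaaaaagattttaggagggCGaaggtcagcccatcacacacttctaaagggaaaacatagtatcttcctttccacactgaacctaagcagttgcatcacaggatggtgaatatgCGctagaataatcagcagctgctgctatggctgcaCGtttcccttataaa
Ncapd3 other start: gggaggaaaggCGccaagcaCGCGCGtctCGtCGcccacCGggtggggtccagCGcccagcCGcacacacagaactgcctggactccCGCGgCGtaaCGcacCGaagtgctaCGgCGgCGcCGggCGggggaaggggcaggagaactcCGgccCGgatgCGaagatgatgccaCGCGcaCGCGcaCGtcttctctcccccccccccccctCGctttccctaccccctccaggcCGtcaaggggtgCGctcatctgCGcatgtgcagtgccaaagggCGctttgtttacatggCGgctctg
Prpsap2 inside the run: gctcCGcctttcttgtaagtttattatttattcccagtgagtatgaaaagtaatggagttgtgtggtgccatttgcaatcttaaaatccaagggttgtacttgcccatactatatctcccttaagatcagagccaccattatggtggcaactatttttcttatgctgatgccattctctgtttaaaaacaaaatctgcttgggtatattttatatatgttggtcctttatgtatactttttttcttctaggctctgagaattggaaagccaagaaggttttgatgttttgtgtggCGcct
Prpsap2 other start: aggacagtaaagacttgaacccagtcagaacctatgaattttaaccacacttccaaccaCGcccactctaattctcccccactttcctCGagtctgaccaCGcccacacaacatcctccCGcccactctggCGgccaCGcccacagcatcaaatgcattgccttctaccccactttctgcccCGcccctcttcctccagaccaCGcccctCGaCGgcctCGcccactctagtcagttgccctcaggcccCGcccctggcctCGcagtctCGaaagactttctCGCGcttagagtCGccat

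The tile at the Ncapd3 start inside the run was at 85.6%, 82.4% and 86.7% in KO and 77.1%, 84.8% and 85.9% in WT. At its other start the means were 0.720% ± 0.0685 in KO and 1.04% ± 0.790 in WT (SD, n = 3 each). The Prpsap2 start inside the run was at 90.1%, 82.3% and 78.1% in KO and 84.9%, 85.5% and 83.7% in WT. Both genes thus had 1 start in highly methylated and 1 in sparsely methylated DNA, and the single tiles inside the runs scattered by several points among samples. The other Prpsap2 start averaged 10.05% ± 2.37 in KO against 16.9% ± 5.34 in WT.

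Over all tiles of the kept runs, the mean level was 85.9%, 86.2% and 85.9% in KO samples 1 to 3 and 87.0%, 86.2% and 86.8% in WT samples 1 to 3. The group means were 86.0% ± 0.157 in KO and 86.6% ± 0.421 in WT (SD, n = 3 each), KO minus WT being -0.64 points. Although the rule allowed either direction, 66.9% of kept tiles had the lower mean in KO, and 3047 runs (24.2%) had the higher mean in KO. For comparison, all tiles at 80% or more in WT had means of 78.7% in KO and 85.2% in WT, and all tiles 63.7% and 69.0%. Lost runs had means of 76.5% in KO and 85.8% in WT. The WT level of kept runs lay between 82.2% and 90.8% for the central 90% of runs (5th to 95th percentile), with a median of 86.5%, and 17.5% of kept tiles were at 90% or more, beside 10.7% of all tiles at 80% or more.

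The limits cut through a continuous range of values. Of the kept tiles, 13740 (28.0%) had a difference of 2 to 3 points and 2303 (4.69%) a WT mean of 80 to 81%. Over single tiles at 80% or more in WT, 46402 had a difference of 2 to 3 points, just inside the limit, and 45198 one of 3 to 4 points, just outside it. With a difference under 3 points, 14631 tiles had a WT mean of 80 to 81% and 15444 one of 79 to 80%. The 20163 tiles that directly adjoined a kept run had means of 77.3% in KO and 81.3% in WT. Of these, 58.1% were at 80% or more in WT but lower by 3 points or more in KO, and 37.4% were under 80% in WT.

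To measure the runs in samples that did not choose them, runs were also chosen in 2 KO and 2 WT samples and measured in the KO and the WT sample left out. In the left-out samples the runs stood at 84.6%, 84.99% and 84.7% in KO and at 87.4%, 86.6% and 87.1% in WT. The left-out differences were -2.84, -1.59 and -2.42 points, with a mean of -2.28 ± 0.636 (SD over the 3 choices). In the choosing samples the same runs differed by only -0.465, -0.561 and -0.453 points. All tiles at 80% or more differed by -6.50, -5.41 and -5.70 points in the same left-out samples. Kept runs were therefore a little lower in KO in samples that did not choose them, by less than all tiles at 80% or more, which include them. The 3 choices share samples and are not independent.

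In limma with Benjamini-Hochberg adjustment over all tiles, 16.2% of the 1954255 tiles were lower in KO by 10 points or more at an adjusted p under 0.05 (316257 tiles) and 0.0796% were higher (1555). No kept tile was called, which the rule fixes, and among tiles at 80% or more in WT 20.7% were called lower. With every sample centred on the median of the sample medians, 129769 tiles were lower and 18197 higher, and with samples scaled to 1 mean level 128517 were lower and 30656 higher.

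Kept runs were short. Exactly 3 tiles made up 7013 of them (55.7%), 2823 had 4 tiles, 131 had 10 tiles or more, and the longest had 20. The longest lost run had 21. Kept tiles made up between 8.78% (chromosome 6) and 11.5% (chromosome 9) of the tiles at 80% or more, so no chromosome lacked them.

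**Figure D1:**
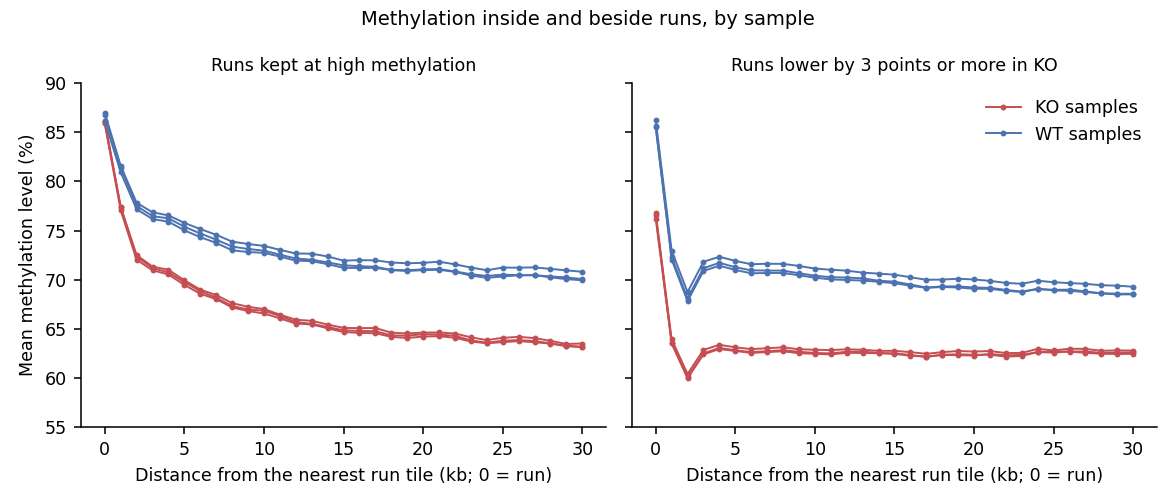
Mean methylation level (%) of each of the 3 KO and 3 WT samples (1 line each) inside runs (distance 0) and in tiles outside them, against the distance from the nearest run tile in kb, for kept runs (left) and lost runs (right). Inside kept runs the lines of both groups meet near 86%, and at 2 to 5 kb the KO samples sit between 70.8% and 71.3% and the WT samples between 76.1% and 76.8%; the y axis starts at 55%.

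The DNA beside kept runs stood lower in every KO sample than in any WT sample. The rule takes part in this, because neighbouring tiles that met it in a run were themselves kept and left the flanks, so the levels beside the runs are a description with no test. At 2 to 5 kb from a run the mean level was 70.8%, 71.1% and 71.3% in KO and 76.8%, 76.1% and 76.5% in WT, or -5.41 points in KO minus WT. Over all tiles of the genome, in and outside genes together, it was -5.36 points. Farther away it was -6.05 points (6 to 10 kb), -6.67 (11 to 20 kb), -7.003 (21 to 50 kb) and -7.02 (51 to 100 kb). In each of these 5 distance classes the groups did not overlap. The value at 2 to 5 kb was -5.38 points with tiles in protein-coding genes alone and -5.42 points outside genes alone. Over all tiles it was -6.23 points in protein-coding genes and -4.46 points outside genes. The nearest flanks thus differed by less than this background in protein-coding genes and by more outside genes. With samples centred, the values from the nearest to the farthest class were -0.52, -1.16, -1.78, -2.11 and -2.13 points, and with samples scaled to 1 mean level they were 0.55, -0.34, -1.14, -1.61 and -1.71. The sign at 2 to 5 kb thus turned with scaling, while the order of the 5 distance classes was the same on the 3 scales.

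Around lost runs the order of the distances was the opposite, as the plot of levels by distance from the run shows. KO minus WT was -8.47 points at 2 to 5 kb from them and -4.24 points at 51 to 100 kb. The difference around kept runs was thus smaller than around lost runs by 3.06 points at 2 to 5 kb and larger by 2.78 points at 51 to 100 kb, as a description for the same reason. Tiles around kept runs lay in protein-coding genes more often than those around lost runs, 74.0% against 62.7% at 2 to 5 kb, and the part of this in the difference was not tested.

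Kept runs lay mostly in genes. Of the kept tiles 84.4% overlapped a gene, beside 71.9% of lost-run tiles, 69.5% of all tiles at 80% or more in WT and 52.7% of all tiles. For protein-coding genes the shares were 81.5%, 65.1%, 62.8% and 44.2%. The gap in gene overlap to the highly methylated tiles narrowed with scaling. It was 83.0% of kept tiles against 73.1% of tiles at 80% or more with samples centred, and 79.4% against 74.0% with samples scaled. A total of 9690 runs (77.0%) lay wholly inside a protein-coding gene, and 1942 (15.4%) touched no gene. The share of runs that touched a protein-coding gene grew with run length, though a longer run can touch a gene more easily. Wholly inside a protein-coding gene lay 113 of the 131 runs with 10 tiles or more. Of runs with 3 tiles 75.5% touched a protein-coding gene, and of the 131 runs with 10 tiles or more 97.7% did, with 2 runs outside any gene. These 2 were chr10:83407001-83421000, at 89.4% ± 0.921 in KO and 90.4% ± 0.939 in WT, 47 kb from the nearest tile under 10%, and chr2:68129001-68139000, at 86.6% ± 3.30 and 86.4% ± 3.10, 333 kb from one. Both are named because they were exceptions, after their values were seen. Exons, introns and untranslated regions were not analysed here.

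The distance to unmethylated DNA was intermediate. From a kept tile, the nearest of the 26874 tiles with a WT mean under 10% was a median of 31 kb away (quartiles 15 and 68 kb), beside 39 kb for lost-run tiles, 39 kb for all tiles at 80% or more and 73 kb for all tiles. The gap to the highly methylated tiles depended on scaling: the medians were 33 kb for both with samples centred, and 38 kb for kept tiles against 35 kb for all tiles at 80% or more with samples scaled. With a limit of 20% for unmethylated tiles they were 27 and 28 kb. Few kept tiles were very near, 5.84% within 5 kb against 9.02% of all tiles at 80% or more, and few were far, 17.1% beyond 100 kb against 24.2%. Within protein-coding genes the kept share of highly methylated tiles was 9.11% for a distance of 1 to 5 kb, 15.8% for 6 to 10 kb, 16.8% for 11 to 20 kb, 15.7% for 21 to 50 kb, 11.4% for 51 to 100 kb and 8.43% for over 200 kb. Outside genes it was lower in every distance class, from 1.66% at 1 to 5 kb to 6.55% beyond 200 kb. The kept share in genes thus peaked at 11 to 20 kb, while outside genes it was highest beyond 200 kb.

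**Figure D2:**
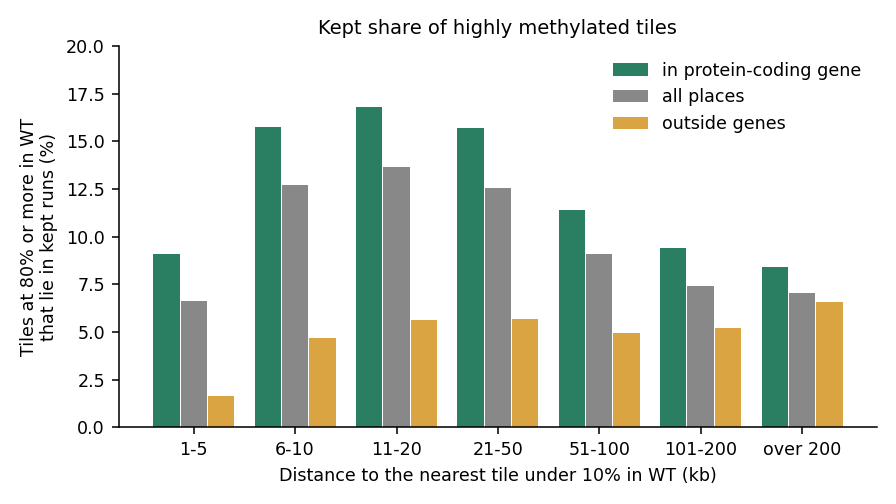
Share (%) of tiles at 80% or more in WT that lie in kept runs, by distance (kb) to the nearest tile under 10% in WT, with bars for tiles in protein-coding genes, all tiles and tiles outside genes. In protein-coding genes the share rises from 9.11% at 1 to 5 kb to 16.8% at 11 to 20 kb and is 8.43% beyond 200 kb.

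Within genes, kept runs lay toward the far end. Among 7569 protein-coding genes of 20 kb or more with a known strand, 61.8% of 28858 kept tiles lay beyond the midpoint. The share was 54.96% for tiles at 80% or more, 53.4% for lost-run tiles and 50.3% for all tiles. For kept tiles it fell to 58.5% with samples centred and 55.7% with samples scaled. The share of tiles at 80% or more was not computed on those scales, so that comparison holds for the levels as deposited only. With each gene divided into 10 equal bins from its start, kept runs held 1.51% of the tiles in bin 1, 6.29% in bin 9 and 5.67% in bin 10. As a share of tiles at 80% or more, this was 6.21%, 15.8% and 14.2%. Unmethylated tiles were frequent in bin 1 alone, with 10.95% of tiles and at most 0.815% in any later bin. Within 5 kb of the start lay 2.32% of kept tiles against 3.93% of tiles at 80% or more, and within 5 kb of the far end 9.74% against 7.48%. Lost runs held 34.5% of the highly methylated tiles in bin 1, 36.6% in bin 2 and 30.99% in bin 10, so their share was lowest where that of kept runs was near its highest.

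**Figure D3:**
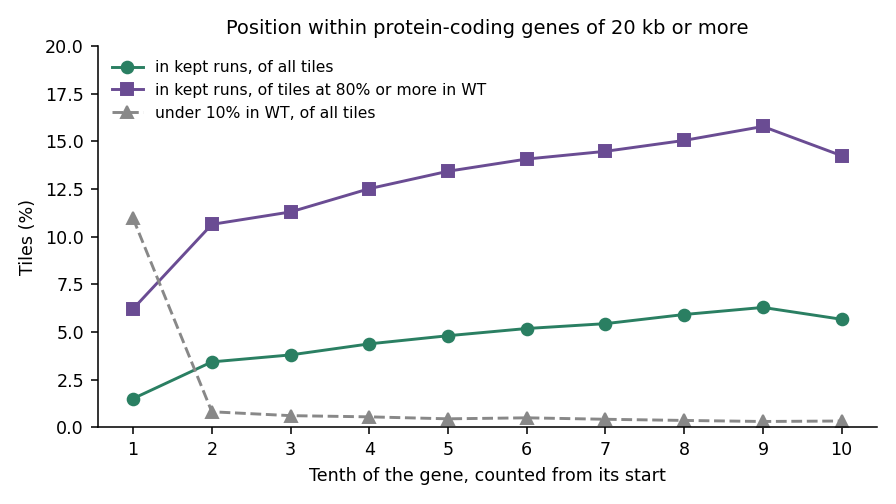
Share of tiles (%) in each of 10 equal bins of the gene, counted from its start, over 7569 protein-coding genes of 20 kb or more: tiles in kept runs as a share of all tiles (circles) and of tiles at 80% or more in WT (squares), and tiles under 10% in WT (triangles). Kept tiles rise from 1.51% in bin 1 to 6.29% in bin 9, while tiles under 10% are at 10.95% in bin 1 and at most 0.815% after it.

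Host genes are taken here as protein-coding genes with at least 3 kept tiles. There were 4782 of them among 20665, and 4771 among the 15903 genes with 5 or more tiles (30.0%). Hosts were long, with a median of 47.0 kb against 20.1 kb for other genes of 5 or more tiles. A longer gene has more tiles, so it reaches 3 kept tiles more easily. Kept runs held 5.93% of the tiles in genes of 5 to 20 kb and 8.12% in genes of 20 to 50 kb. They held 7.03% in genes of 50 to 100 kb and 2.78% in genes over 100 kb, so the kept share was lowest in the longest genes. The lowest tile at the start was under 10% in WT in 85.6% of 3852 hosts with a known start, against 56.5% of 8738 other genes. Their promoters were also richer in CG, with a median of 22 CG pairs over 4893 windows against 11 over 14087 windows of other protein-coding genes. Kept runs made up a median of 16.2% of the tiles of a host. A kept share of 50% or more was found in 195 genes of 10 or more tiles, 25% or more in 1379 and 10% or more in 3111.

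The rest of the host gene, meaning body tiles at least 3 kb away from any kept run and 1 kb from the gene ends, was then examined. Taking out the kept runs removes tiles with little difference, from hosts above all, so the values below describe the tiles that remained, and hosts cannot be compared with other genes free of the rule. A gene body was called at an adjusted p under 0.05 in limma (Benjamini-Hochberg over all bodies) and a difference of 5 points. Over all 15475 gene bodies 60.0% were called lower in KO and 0.0323% higher. Among 4300 hosts, 2667 (62.02%) were called lower and 0 higher (2 were higher at an unadjusted p under 0.05), and among 11084 other genes 6602 (59.6%) were lower. On the levels as deposited and with this gap of 3 kb, the share in hosts was thus near the background. The rest of hosts averaged 69.4%, 69.6% and 70.0% in KO and 76.3%, 75.7% and 76.1% in WT, without overlap. That was a difference of -6.33 points in hosts and -7.21 in other genes. With samples centred, 560 hosts were lower and 33 higher, beside 3264 and 321 of all 15475 bodies. With samples scaled, 465 hosts were lower and 113 higher, beside 3060 and 514 of all bodies. On both scales hosts were thus called lower less often than all bodies.

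Gene length moved with this result. Hosts of 5 to 20 kb were called lower in 47.4% of cases against 59.7% of other genes, and hosts of 20 to 50 kb in 51.8% against 62.1%. Hosts over 100 kb were called lower in 77.4% against 46.8%. The share called was thus lower in short hosts than in other short genes and higher in long hosts than in other long genes, and these shares were not tested against each other. With 10 kb in place of 3 kb left out around the runs, 2235 of 3182 hosts were lower, beside 8690 of all 14058 bodies. The share in hosts was then above this background, again without a test.

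The longest kept run, 20 kb at chr15:8121001-8141000, lay in Nup155 and stood at 86.2%, 88.4% and 86.5% in KO and 88.1%, 86.6% and 88.05% in WT. Kept runs held 31 of the 50 tiles of this gene, from 12.2 kb after the start. Its other 9 tested body tiles had means of 79.6% ± 2.06 in KO and 82.6% ± 0.137 in WT, KO minus WT being -3.03 points (SE 1.12, limma with Benjamini-Hochberg adjustment, adjusted p = 0.0378). This is under the limit of 5 points. With samples centred or scaled the difference was 1.86 or 3.53 points.

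The next longest, 19 kb at chr14:47721001-47740000, covered the last part of Ktn1, which encodes kinectin, a membrane protein of the endoplasmic reticulum that binds kinesin. Its levels were 86.9%, 84.96% and 86.1% in KO and 87.2%, 86.9% and 85.9% in WT, with 15564 bases of the run inside the gene. The rest of Ktn1, 43 tiles, was lower in KO, at 72.6% ± 0.868 against 78.8% ± 0.845 (-6.27 points, limma with Benjamini-Hochberg adjustment, adjusted p = 2.23e-04). This call was lost with samples centred (-1.37 points, adjusted p = 0.163) or scaled (-0.15 points, adjusted p = 0.883). The run in Dync1h1, 18 kb at chr12:110610001-110628000, was at 86.7%, 86.2% and 87.4% in KO and 87.4%, 86.1% and 88.7% in WT. Inside all 3 of these runs the KO and WT samples overlapped. The rest of Dync1h1 differed by -4.24 points, under the limit, and by -5.15 points without KO sample 1, which passed it.

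The other 7 of the 10 longest runs also lay in genes. Mdn1, an ATPase of ribosome assembly, held 17 kb (chr4:32691001-32708000), at 85.6% ± 0.295 in KO and 86.0% ± 0.724 in WT. Ep400, an ATPase that remodels chromatin, held 17 kb (chr5:110723001-110740000), at 86.5% ± 0.935 and 86.2% ± 1.37. Snrnp200, a helicase of the spliceosome, held 16 kb (chr2:127213001-127229000), at 89.4% in both groups. In these 3 runs KO minus WT was -0.38, 0.28 and 0.01 points. Ubp1, a transcription factor of the grainyhead family, and Smc6, a subunit of a complex that maintains chromosomes, held 16 kb each (chr9:113947001-113963000, which also overlaps Fbxl2, and chr12:11288001-11304000). Ehmt1, which methylates histone H3 at lysine 9, held 15 kb (chr2:24814001-24829000). Nusap1, a protein of the mitotic spindle, held 15 kb (chr2:119621001-119636000), and its run began 2 kb from a tile under 10%, the nearest of the 10.

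Outside the runs, on the levels as deposited, these genes fell on both sides of the limit of 5 points and were not tested against each other. The rest of Ehmt1 was lower in KO by limma, at 74.2% against 80.04% (-5.86 points), and so was that of Smc6 (-6.00 points), though without WT sample 1 it was -4.92 points, under the limit. The rest of Ubp1 (-5.56 points) passed at an adjusted p of 0.0196 in limma, but not without KO sample 2 (adjusted p = 0.0586), WT sample 1 (0.0607) or WT sample 3 (0.0585), nor with 10 kb left out around the runs (0.0501). The rests of Mdn1 (-3.86 points, adjusted p = 0.00292 in limma) and Ep400 (-2.75 points, adjusted p = 0.0154) were also lower in KO, but under the limit of 5 points.

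**Figure D4:**
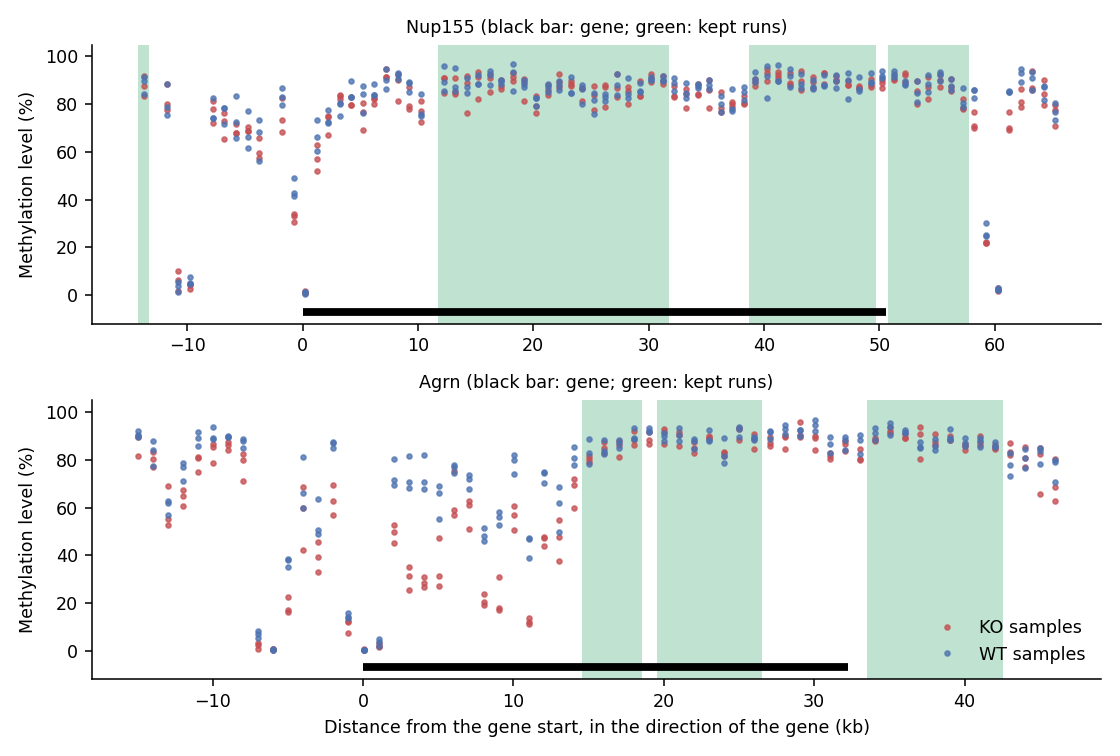
Methylation level (%) of 1 kb tiles in each KO and WT sample across Nup155 (top) and Agrn (bottom), against the distance from the gene start in kb, with the gene as a black bar and kept runs shaded green. In Nup155 the red and blue points overlap through the shaded runs. In Agrn they separate in most tiles between the start and the runs, and overlap inside the runs. The other tested tiles of Agrn average 38.9% in KO and 63.1% in WT.

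Genes among those with the most kept tiles were long. Nbas, a factor of transport from the Golgi to the endoplasmic reticulum, had 87 of 336 tiles. Cep128, a centriole protein, had 72 of 343. Dock1, an activator of Rac, Mycbp2, a ubiquitin ligase, and Vps13b, a lipid transport protein, had 66 each, and Herc2, another ubiquitin ligase, and Ptprk, a receptor tyrosine phosphatase, 65 each. Diaph3, a formin that builds actin filaments, had 63 of 430, and Birc6, which attaches ubiquitin and inhibits apoptosis, 61 of 158. The rest of the body was called lower by limma in Dock1, Mycbp2, Vps13b, Ptprk, Diaph3 and Birc6, the last with -5.28 points, which became -4.93 without KO sample 2. It was not called in Nbas, Cep128 and Herc2, whose differences lay between -4.40 and -3.63 points. These calls are for the levels as deposited. Centring the samples moved all body differences up by the same amount and took Birc6 to -0.39 points. The other genes called here then also fell short of the limit of 5 points.

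The 10 genes with the largest kept share, among those of 20 or more tiles, were from 20452 bases (Ppp2r1a) to 53945 bases (Cenpc1) long. Eif2a, a factor of translation initiation, had 23 of 27 tiles in kept runs (85.2%). Its kept tiles were at 88.3%, 88.04% and 86.3% in KO and at 88.7%, 86.9% and 87.7% in WT, so the groups overlapped. It was followed by Ppp2r1a, the scaffold subunit of protein phosphatase 2A (70.0%), Snrnp200 (68.8%), Wdr36 (67.9%), Trappc13 (65.7%), Nusap1 (65.6%), Zfp850 and the chromosomal passenger protein gene Incenp (65.4% each), the kinetochore gene Cenpc1 (65.3%) and Rpp30, a subunit of ribonuclease P (65.0%). In Eif2a, Wdr36, Incenp and Rpp30 no body tile was far enough from a run to be tested. In Cenpc1, the rest stood at 79.1%, 81.4% and 82.5% in KO and at 83.0%, 81.1% and 83.8% in WT. These overlapped, and the difference of -1.67 points did not pass (limma with Benjamini-Hochberg adjustment, adjusted p = 0.224). With 10 kb left out around runs it was 0.57 points.

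In other hosts with at least 10 kept tiles, the rest of the gene lost much methylation, and the 5 with the largest fall are given. Agrn encodes agrin, a proteoglycan of basement membranes. Its 11 kept tiles, 15.03 to 26.03 kb from the start, were at 85.7%, 88.2% and 86.8% in KO and 88.6%, 87.7% and 87.2% in WT. Its 12 other tested tiles were at 37.6%, 38.3% and 40.8% in KO and 64.3%, 62.01% and 62.9% in WT, KO minus WT being -24.16 points (SE 1.21, limma with Benjamini-Hochberg adjustment, adjusted p = 7.02e-06). The kept tiles were chosen for a small difference and the groups overlapped in them, while the means of the 12 other tested tiles were far apart. All of these tested tiles but the one at 30.03 kb lay before the runs, from 1.03 to 11.03 kb after the start. Not every tile outside the kept runs differed, as the map of Agrn shows. At 1.03 kb from the start the tile was at 1.94%, 1.52% and 3.12% in KO and 1.90%, 4.76% and 3.66% in WT. At 29.03 kb, after these runs, it was at 90.4%, 89.4% and 95.9% in KO and 92.3%, 92.4% and 89.8% in WT. The rest of Rnf220, a ubiquitin ligase gene, fell by 19.29 points, and that of Ptk7, a receptor of planar cell polarity, fell by 18.93 points. In Ptk7 the rest was at 53.0%, 52.7% and 52.8% in KO against 73.5%, 70.7% and 71.2% in WT, while its 10 kept tiles averaged 86.7% ± 0.934 and 87.98% ± 1.11. The rests of Nav1, a microtubule-binding protein gene, and Bcas3 also fell, with differences of -16.34 and -16.22 points. Kept tiles were 4.82% of Nav1 and 2.44% of Bcas3, so these runs were small parts of genes that otherwise lost methylation.

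Gene lists showed where kept runs were frequent. For genes of splicing, the proteasome and ubiquitin, translation, DNA replication and repair, and mitochondria and metabolism, 75 of 94 measured genes were hosts (79.8%), beside 30.0% of all genes. In these lists 24.9% of tiles and 33.9% of highly methylated tiles were in kept runs, beside 4.63% and 13.3% over all genes. The share of all tiles fell to 15.5% with samples centred and 5.68% with samples scaled, beside 4.82% and 2.31% over all genes, so the ratio to all genes went from 5.37 to 3.23 and 2.45. By list, hosts numbered 14 of 20 for splicing, 17 of 19 for the proteasome and ubiquitin, 15 of 17 for translation, 18 of 20 for DNA replication and repair, and 11 of 18 for mitochondria and metabolism. The median length of the 94 genes was 32.4 kb, and that of all genes 26.1 kb. RNA was not measured in these samples, so the lists say only what the genes are known for.

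Single members had long stretches. The spliceosome gene Snrnp200 had 22 kept tiles of 32. Eprs and Iars, which charge transfer RNAs with amino acids, had 30 of 65 and 20 of 45. In Iars, kept tiles were at 88.6% ± 0.710 in KO and 89.0% ± 0.694 in WT, and the rest at 74.2%, 72.4% and 71.4% in KO and 71.6%, 74.4% and 74.2% in WT. The samples of Iars overlapped in both. Prkdc, the catalytic subunit of the DNA-dependent protein kinase, had 46 of 177, and Wrn, the helicase lost in Werner syndrome, 32 of 137. Ndufs1, a subunit of respiratory complex I, had 19 of 31.

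The rest of the body was called lower in 38 of the 89 tested genes of these 5 lists and higher in 0, with a median difference of -4.46 points. Over all genes 9269 of 15384 were lower and the median was -6.08 points. Centring the samples moved the median of all genes to -1.19 points and scaling them moved it to -0.49, and the median of the 5 lists then became 0.43 and 1.25 points, so the direction of the lists' rest of body holds only for the levels as deposited. The median of the 5 lists together lay above that of all genes on each of these 3 scales.

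Genes of DNA methylation and H3K36 methylation were hosts in 17 of 22 cases, beside 30.0% of all genes. Of their tiles 15.5% were kept, and of their highly methylated tiles 24.4%, beside 4.63% and 13.3% over all genes. These genes were long, with a median of 79.6 kb against 26.1 kb for all genes. Among all genes of 50 to 100 kb, 45.1% were hosts. Ash1l, an H3K36 methyltransferase gene, had 29 kept tiles of 117, and Kdm4c, a histone demethylase gene, 28 of 137. Setd2 had 17 of 78, at 85.2% ± 0.0234 in KO and 85.9% ± 4.13 in WT, and Dnmt1 14 of 53, at 86.7% ± 0.640 and 87.8% ± 0.982. Dnmt3a itself had 0 kept tiles of 111, and Dnmt3b 0 of 39. The body of Dnmt3a was lower in KO, at 49.96% ± 1.11 against 65.4% ± 0.729 in WT (limma with Benjamini-Hochberg adjustment, adjusted p = 9.99e-06). The rest of the body was called lower in 14 of 22 genes of the list, with a median of -7.13 points, beside 60.3% of all genes and -6.08 points. With samples centred 2 of 22 were lower (median -2.24 points), beside 3263 of all 15384 genes. With samples scaled 2 were lower and 1 higher (median -1.18 points), beside 3058 and 500 of all genes. On both scales the share called lower in this list was thus below that of all genes.

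Pan-endothelial markers held few kept runs. Only Tek, the angiopoietin receptor, and Emcn, the sialoprotein endomucin, were hosts, with 3 tiles each of 102 and 74, and the other 20 genes of the list had 0. Kept runs held 1.64% of the 366 highly methylated tiles of these genes, beside 13.3% over all genes. Their kept share of all tiles was 0.455%, beside 4.63% over all genes, and it depended on scaling and samples. It was 2.81% with samples centred (4.82% over all genes), 1.44% with samples scaled (2.31% over all genes) and 1.21% without KO sample 2 (4.26% over all genes). The rest of the body was called lower in 18 of 22, beside 60.3% of all genes, with a median of -8.36 points. With samples centred 8 of 22 were lower (median -3.47 points) and with samples scaled 10 of 22 (median -4.08 points), both medians below that of all genes. Over all 15384 genes, 3263 were lower with samples centred and 3058 with samples scaled. In Emcn the rest averaged 67.0% ± 0.221 in KO against 73.6% ± 0.454 in WT, and in Tek 57.4% ± 1.02 against 63.9% ± 1.90. Both were called lower by limma on the levels as deposited and neither with samples centred (adjusted p = 0.0576 for Emcn and 0.218 for Tek) or scaled (0.227 and 0.213).

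Lists of other cell types differed in their kept runs. Leukocyte (18 genes), lung epithelial (11) and lung mesenchymal (18) genes had 0 hosts, with 103, 70 and 174 highly methylated tiles to choose from. Of 20 germline genes 1 was a host, Tex15 with 3 tiles. Synapse and neuron genes had 6 hosts of 23 and muscle genes 5 of 18, led by Ptprd, a receptor phosphatase gene with 59 kept tiles of 1644, and Ttn, the gene of the giant sarcomere protein titin, with 31 of 267. Their kept share of all tiles was low, 0.514% and 3.08%, but of highly methylated tiles it was 9.16% and 14.6%. Of 18 liver genes only F2, prothrombin, was a host, with 7 of 24 tiles, which made up 13.2% of the highly methylated tiles of the list. Kept runs were thus not limited to the lists of broadly expressed genes, and the muscle and liver lists had about the kept share of highly methylated tiles found over all genes (13.3%).

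**Figure D5:**
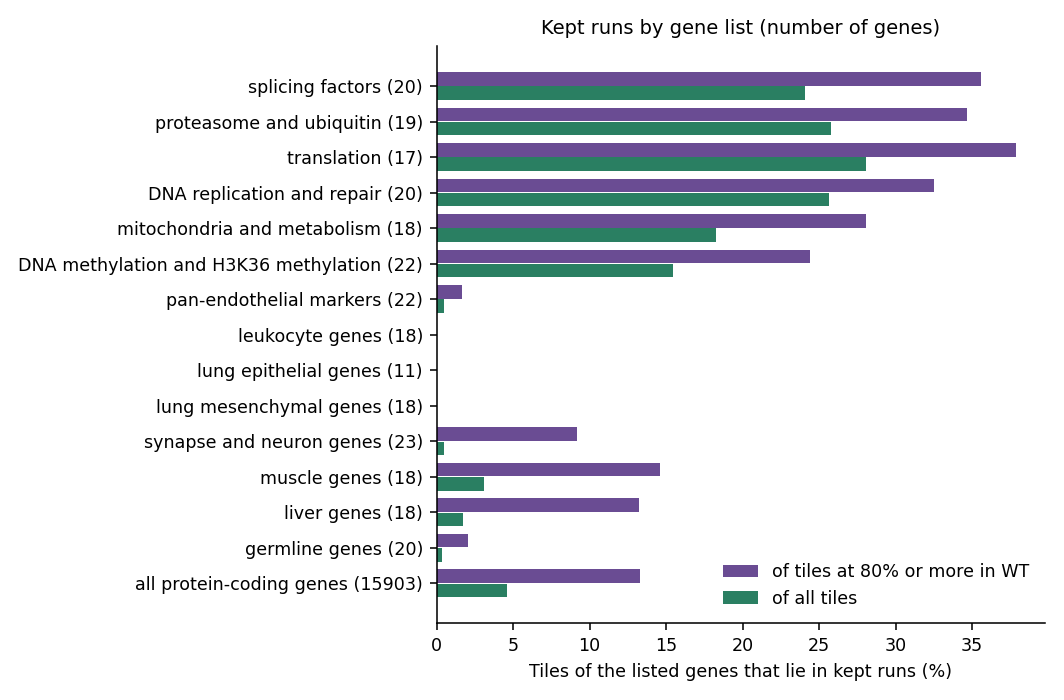
Share (%) of the tiles of each gene list that lie in kept runs, of all tiles (green) and of tiles at 80% or more in WT (purple), with the number of measured genes in brackets. The 5 lists of broad cell functions are at 18.3% to 28.1% of all tiles, the pan-endothelial list at 0.455%, the leukocyte, epithelial and mesenchymal lists at 0 and all protein-coding genes at 4.63%.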

How the data were processed

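Libraries with tagmented DNA, 3 per sample, were bisulfite-sequenced for 3 KO and 3 WT samples of lung endothelial cells, per the labels' protocols. BWA 0.7.8 served for alignment and mm10 was the genome build, per the submitters' processing notes. The values deposited by the authors are methylation levels as a fraction from 0 to 1, in 1 row for each 1 kb tile and 1 column for each sample, per the file headers, with 0 missing values. The sources used here do not name the methylation caller, any smoothing, any coverage filter or how tiles were picked. No read counts are given, so the depth of the samples is unknown and no interval was computed.

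Fractions were multiplied to percent and grouped by the genotype in the labels. The rule for kept runs, the gene lists and the tests were chosen with earlier results of these data known, and the alternatives for the lists and the position in genes were added after the data were seen. Genes came from a RefSeq table of GRCm38.p6. A start and strand were known for 16457 of 20665 protein-coding genes, through RefSeq promoter windows. These windows held none for chromosome 18, so its genes are missing from the results on gene starts and on position within genes. Genes can overlap. Of 295 symbols in 14 lists, 284 were in the gene table, and genes with 5 or more tiles counted as measured. Named genes were those of the 10 longest runs, the 10 with most kept tiles, the 10 with the largest kept share among genes of 20 or more tiles, up to 2 hosts per list, and the 5 hosts of 10 or more kept tiles whose rest of body fell most. Further genes were named to show a list or a start. Some genes that this rule names are not reported here.

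Tiles and gene bodies were tested with limma 3.58.1 in R 4.3.3, using all 6 samples, a variance trend and no covariate, after the code was tested on simulated data. Python 3.11.15, numpy 2.4.6, pandas 2.3.3, scipy 1.17.1 and matplotlib 3.10.9 did the rest. Alternatives changed the limits, the scaling, the replicates and the gap around runs.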

Additional observations from a re-analysis of the deposited data

How the results depend on the processing

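In place of 12581 kept runs there were 6231 with a WT level of 85% or more, 20877 with 75%, 6246 with differences under 2 points, 24382 under 5, 32735 with 2 tiles or more, 2745 with 5 or more and 7668 after scaling samples to one mean. Gene overlap (84.4%) was, in that order, 91.6%, 73.6%, 85.4%, 82.8%, 78.2%, 91.6% and 79.4%, with 84.9% by the mean of all 6 samples, 83.0% with centred samples and 81.5% for protein-coding genes only. The distance (31 kb) was 27 kb with 85%, 41 with 75%, 33 under 5 points, 36 with 2 tiles, 26 with 5 tiles, 33 centred, 38 scaled and 27 to tiles under 20%. The ratio of the kept share of tiles in the 5 broad lists to that of all genes (5.37) was 6.44 with 85%, 4.41 with 75%, 4.39 under 5 points, 4.31 with 2 tiles, 7.36 with 5 tiles, 3.23 centred and 2.45 scaled. The share beyond the gene midpoint (61.8%) was 60.4% with 75%, 60.7% under 5 points, 60.2% with 2 tiles, 63.6% with 5 tiles, 58.5% centred and 55.7% scaled. Leaving out 1 sample gave 10909 to 12701 runs, 83.9 to 85.1% overlap, 31 to 32 kb, ratios of 4.95 to 5.44 and 60.9 to 61.6% beyond the midpoint. All of these kept their side of the value for all tiles or genes. Gene overlap of tiles at 80% or more was 73.1% centred and 74.0% scaled, so kept tiles exceeded it by less on those scales. The distance, however, was not below that of tiles at 80% or more when centred (33 against 33 kb) or scaled (38 against 35 kb). The share beyond the midpoint was set beside that of tiles at 80% or more on the levels as deposited only.

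Called tiles were 129769 lower and 18197 higher with centred and 128517 and 30656 with scaled samples, and host rests 560 and 33, and 465 and 113. Over all 15475 bodies these counts were 3264 and 321 centred, and 3060 and 514 scaled. Leaving out 1 sample gave 243872 to 288387 tiles lower, 1300 to 1633 higher, and 2568 to 2785 hosts lower, 0 higher. At 2 to 5 kb scaling reversed the difference to 0.55 points. The rest of body reversed to 1.86 centred and 3.53 scaled in Nup155, 0.65 and 0.84 in Dync1h1, 1.03 and 2.73 in Mdn1, 2.14 and 3.57 in Ep400, 1.27 and 2.86 in Herc2, 3.23 and 4.95 in Cenpc1 (0.57 with 10 kb left out), 4.19 and 5.21 in Iars, and, scaled only, 0.21 in Ubp1, 0.37 in Ehmt1 and 1.19 in Birc6. Calls on the rest of Ktn1, Smc6, Emcn and Tek were lost on both scales. Those on Ubp1, Ehmt1, Birc6, Dock1, Mycbp2, Vps13b, Ptprk and Diaph3 were lost when centred. The cause was not tested.

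Replicate numbers did not pair the samples: deviations of same-numbered samples correlated at r = 0.00563, -0.00321 and 0.0110 across tiles, and KO sample 2 did not correlate best with its own number. With the replicate block 316314 tiles were lower and 1612 higher, and 2670 host rests lower and 1 higher.

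Depth is unknown, so samples could not be weighted by it, and single tiles are less certain than run means. Counts of tiles are not counts of independent places.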
